A study of Mus musculus with 84 samples.

Results

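Mammary tumors that carried a mutation in the Ha-Ras gene were compared with tumors in which Ha-Ras was wild-type, all of them from MMTV-Wnt-1 transgenic mice. In these mice the mouse mammary tumor virus (MMTV) enhancer drives the secreted signaling protein Wnt-1 in the mammary gland, so every tumor compared shares that transgene and the question was what a Ras mutation acquired later adds to it. The comparison rested on 21 tumors out of 84 samples in the series: 12 with mutant Ha-Ras, which bear the numbers 8, 21, 22, 23, 26, 42, 62, 64, 65, 66, 79 and 80 in their titles, and 9 with wild-type Ha-Ras, numbered 24, 25, 38, 47, 49, 50, 69, 70 and 71. Tumors 20 and 36, whose status was unknown, were left out of every test.

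The mice were a mixture of the FVB, SJL and C57BL/6 strains, mostly FVB, and the sources used here describe no treatment of them. Status came from the study's sequencing of Ha-Ras cDNA. It was matched to each array by title number, from the colors of the study's tumor dendrogram, because the sample labels do not state it. The study gives the age of its Wnt-1 tumors only as a range over all of them. The age of each mouse, the codon changed and the share of tumor cells with the mutation are not given in the sources used here. Total RNA of each tumor was labeled with Cy5 and hybridized, beside a Cy3-labeled reference RNA common to all arrays, a pool of ovarian RNA with RNA of FVB mouse liver, spleen, kidney, thymus, pancreas, lung and lactating gland, to a spotted cDNA array of 15360 clones (the 15k array). Values are log2 ratios of tumor to reference as the authors normalized them, so 0 means a level equal to that of the reference RNA. Each tumor is a single array, and RNA was taken from bulk tissue, so fewer cells of a type and less RNA per cell cannot be told apart.

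Ras proteins are small GTPases of the inner cell membrane. Receptor tyrosine kinases bring exchange factors to them through adaptor proteins, the exchange factors load them with GTP, and GTPase activating proteins switch them off. Ha-Ras mutations found in tumors block that last step and leave the protein active, which passes the signal to Raf kinases and the mitogen-activated protein kinase (MAPK) pathway, to phosphatidylinositol 3-kinase and to exchange factors of Ral. MAPK signaling in turn raises transcription of a set of immediate and feedback genes such as Dusp, Spry and Fos family members, which are widely read as a sign of pathway activity.

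No clone passed the test between mutant and wild-type tumors. With limma and Benjamini-Hochberg adjustment over the 15360 clones, 0 clones (0%) had an adjusted p under 0.05 and the smallest adjusted p was 0.996. At an unadjusted p under 0.05 there were 662 clones (4.31%), of which 445 (2.9%) were higher and 217 (1.41%) lower in mutant tumors. A permutation test of the kind the study used, at P under 0.001 with permuted statistics pooled over clones, gave 14 clones (0.0911%), 12 higher and 2 lower in mutant tumors. In 0 of 15360 clones (0%) did all mutant tumors lie on one side of all wild-type tumors.

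The size of a difference was nonetheless bounded for most clones. The 95% confidence interval of the mutant to wild-type ratio lay inside a 1.5-fold change in either direction for 11359 clones (74%) and inside 2-fold for 13599 clones (88.5%). The median clone differed by 0.0912 on the log2 scale, a fold of 1.07, with a median standard error (SE) of 0.128. Mean differences beyond 2-fold were seen in 157 clones, 134 of them higher and 23 lower in mutant tumors, and none of these passed the test. A fold here is a ratio of geometric means.

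The clones named below with fold changes are described for their values, not as genes called different. Some facts about the arrays touch them. The log2 ratios of an array had an SD of 0.67 to 0.855 in the 8 tumors numbered 38 or lower and 0.924 to 1.78 in the 13 numbered 42 or higher, with tumor 42 (mutant) at 1.78 and tumor 49 (wild-type) at 1.36. Both number ranges hold both groups, 5 mutant and 3 wild-type tumors in the lower one and 7 and 6 in the higher one. What the numbers stand for is not given in the sources used here. On each array a single log2 ratio was shared by 81 to 793 clones, while no other value was shared by more than 10. Tumor 79 had the 793 clones and the next highest array had 237. The differences also followed the position of the clone on its source plate, as described further on. The SD and the median of an array did not pass a test between mutant and wild-type tumors (differences -0.0291 and 0.00371, adjusted p = 0.822 for both by exact two-sided permutation over all splits of the tumors, 2 measures).

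No Ras gene was called. No clone that carries the symbol Hras alone was analysed here, so the level of the mutated gene could not be read. Nras, another classical Ras gene, had 2 clones. On clone PP:2m4 the log2 ratio was 0.396 at the lowest, 0.792 at the median and 1.01 at the highest in mutant tumors, and 0.435, 0.703 and 0.927 in wild-type tumors. On clone PP:3i17 the same figures were -0.147, 0.0543 and 0.239 against -0.28, 0.0198 and 0.211. The groups overlapped almost completely on both clones, and the ratio was 1.04 on each (95% interval 0.926 to 1.16 and 0.943 to 1.14). Over the 9 Ras family GTPases measured, after clones were averaged per gene, ratios ran from 0.965 for Rala to 1.09 for Mras and Rasd1, and the 95% interval of all 9 lay inside 1.5-fold. None had an unadjusted p under 0.05, where 4.26% of the 7766 genes did (3.13% higher and 1.13% lower). One of the 2 clones of Mras, a Ras relative that binds Raf regulators, did (PP:15b11, ratio 1.14, p = 0.016, limma, not adjusted), while its other clone had a ratio of 1.05. In tumors numbered 38 or lower the log2 difference of PP:15b11 was -0.0718, and those of the Nras clones were -0.115 and -0.0226.

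Upstream of Ras, the 9 receptors and ligands measured had ratios from 0.827 to 1.35, and 0 of them had an unadjusted p under 0.05. The epidermal growth factor receptor (Egfr) had a ratio of 1.02 (0.864 to 1.21) and its partner Erbb3 one of 0.987 (0.818 to 1.19). The stem cell factor receptor Kit stood at a mean log2 ratio of 2.73 in both groups, a ratio of 1 (0.76 to 1.32). Its ligand Kitl had the lowest ratio of the group, 0.827 (0.642 to 1.07). Pdgfra, the alpha receptor for platelet-derived growth factor, had the highest, 1.35 (0.999 to 1.83), with a mean log2 ratio of -0.547 in mutant and -0.983 in wild-type tumors.

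Of the 10 adaptors, exchange factors and GTPase activating proteins measured, 5 had a higher and 5 a lower mean in mutant tumors. The exchange factor Sos2 was the single one with an unadjusted p under 0.05. Its log2 ratio ran from 0.355 through a median of 0.546 to 0.745 in mutant tumors and from 0.231 through 0.346 to 0.514 in wild-type tumors, and 7 of 12 mutant tumors lay above every wild-type tumor. The ratio was 1.13 (1.03 to 1.23, p = 0.00913, adjusted p = 0.996, limma). In tumors numbered 38 or lower the log2 difference was -0.0214 and in those numbered 42 or higher 0.28, and with plate positions aligned it was 0.0793 (p = 0.162, limma, not adjusted). The adaptors Grb2 and Shc1 had ratios of 0.944 and 0.943, and the GTPase activating proteins Rasa1 and Nf1 ratios of 0.971 (0.858 to 1.1) and 1.28 (0.815 to 2.02).

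Downstream, the 12 effectors and kinases measured had ratios from 0.734 to 1.3 with a median log2 difference of -0.0246, or 0.0078 with plate positions aligned, beside 0.00941 over all genes. The Raf kinases Araf and Braf had ratios of 0.909 (0.787 to 1.05) and 0.913 (0.72 to 1.16). Akt1 was at 0.956 (0.876 to 1.04) and Akt2, kinases that act after phosphatidylinositol 3-kinase, at 1.26 (0.911 to 1.74). The Ral exchange factors had ratios on both sides of 1: Rgl1 was higher in mutant tumors (ratio 1.3, 1.04 to 1.63, p = 0.0216, adjusted p = 0.996, limma), Ralgds was lower (0.767, 0.586 to 1, p = 0.0527) and Rgl2 stood at 1.02 (0.941 to 1.11). Wild-type tumor 49 held the lowest Rgl1 value, -1.9, and without tumors 42 and 49 the log2 difference of Rgl1 was 0.186 in place of 0.384.

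Among transcripts read as a sign of MAPK activity, those measured gave no call. The list names 27 genes, of which 12 had a clone with a single gene symbol, so the rest could not be read. Of 12 feedback and target genes measured, 7 had a higher and 5 a lower mean in mutant tumors, 0 had an unadjusted p under 0.05, ratios ran from 0.854 to 1.18, and the 95% interval of 10 lay inside 1.5-fold. Their median log2 difference was 0.011 beside 0.00941 over all genes, and it turned to -0.0118 without tumor 42. The phosphatase Dusp4 had a ratio of 1.18 (0.687 to 2.02), the inhibitors Spry1 and Spred1 both 1.06 (0.84 to 1.34 and 0.915 to 1.24), and the transcription factor Etv4 0.966 (0.766 to 1.22). Fos stood at 0.854 (0.573 to 1.27), cyclin D1 (Ccnd1) at 0.904 (0.729 to 1.12) and the adhesion receptor Cd44 at 1.14 (0.947 to 1.37). Averaged over the 12 genes, the log2 ratio of a tumor lay between 0.675 and 0.867 in the mutant group and between 0.614 and 0.859 in the wild-type group.

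Myc showed how wide the overlap was. It is a transcription factor that both Wnt and MAPK signaling induce, and all 21 tumors were above the reference: from 1.72 through a median of 2.23 to 2.81 in mutant and from 2.09 through 2.37 to 2.51 in wild-type tumors. Virgin glands of nontransgenic mice had a median of -0.144 (n = 5) and hyperplastic glands of MMTV-Wnt-1 mice one of 1.49 (n = 7). The mutant to wild-type ratio was 0.91 (0.77 to 1.07, p = 0.25, adjusted p = 0.996, limma).

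**Figure D1:**
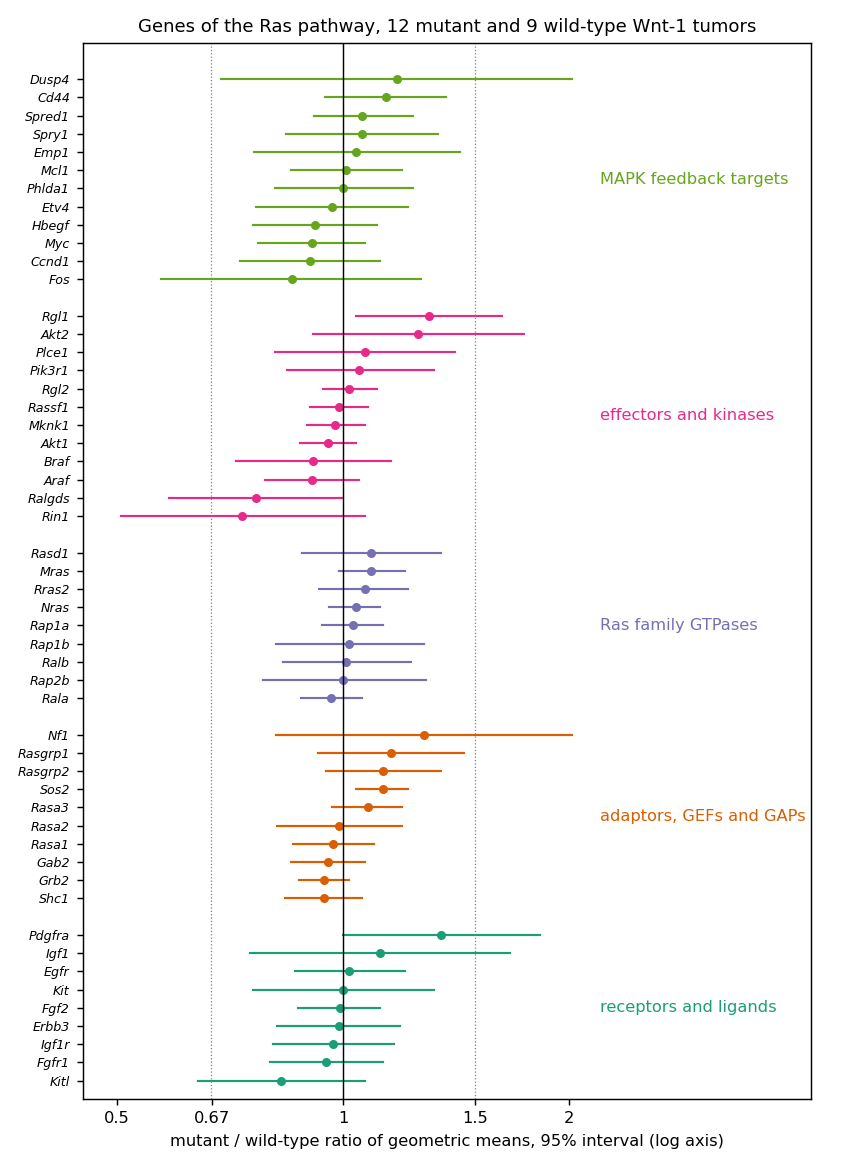
Mutant to wild-type ratio of geometric means (points) with its 95% limma interval (lines) on a log axis, for genes of the Ras pathway after clones were averaged per gene, in 12 mutant and 9 wild-type Wnt-1 tumors. The dotted lines mark a 1.5-fold change either way, and most intervals span a ratio of 1.

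Clones without a single gene symbol were left out of the 10 named in each direction, such as PP:20k23 (higher, p = 0.000305, limma, not adjusted). Among clones with a single symbol, the 10 of smallest p higher in mutant tumors were led by Larp6, an RNA-binding protein of collagen messages. Its log2 ratio ran from -0.546 through a median of -0.216 to 0.116 in mutant tumors (-0.207 ± 0.202, SD, n = 12) and from -1.18 through -0.63 to -0.285 in wild-type tumors (-0.644 ± 0.28, SD, n = 9). The ratio was 1.35 (1.16 to 1.58, p = 0.000472, adjusted p = 0.996, limma), and 8 of 12 mutant tumors lay above every wild-type tumor. The log2 difference was 0.662 in the tumors numbered 42 or higher and 0.0329 in those numbered 38 or lower.

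Genes of cell division and DNA repair were among the 10. Anln, the actin-binding protein anillin of the cleavage furrow, ran from 0.17 through 0.429 to 0.683 in mutant and from -0.283 through 0.0291 to 0.391 in wild-type tumors, a ratio of 1.28 (1.12 to 1.46). Here too the log2 difference was 0.49 in tumors numbered 42 or higher and 0.0869 in the others. Rad54b, a helicase of homologous recombination, had a ratio of 1.35 (1.15 to 1.59) on one clone and 1.18 (1.02 to 1.36, p = 0.0244, limma, not adjusted) on the other. In the list of proliferation genes, 14 measured genes had a median log2 difference of 0.0369 with 0 at an unadjusted p under 0.05, and the highest ratio was that of the centromere histone Cenpa, 1.23 (0.915 to 1.66).

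The largest fold among the 10 was that of Cux1, a homeodomain transcription factor. It ran from -1.16 through -0.343 to 0.0961 in mutant tumors and from -3.31 through -1.28 to -0.262 in wild-type tumors, a ratio of 2.03 (1.34 to 3.09, p = 0.00202, adjusted p = 0.996, limma). The spread was far wider in the wild-type group (SD 0.993 against 0.313), with tumor 50 at -3.31 and tumor 49 at -2.21. Megf9, a membrane protein with EGF-like repeats, had a ratio of 1.63 on one clone (log2 difference 0.707, SE 0.185) and of 1.04 (0.956 to 1.13) on its other clone. Rassf2, a protein with a Ras association domain, had a ratio of 1.38 (1.14 to 1.67), with a log2 difference of 0.702 in tumors numbered 42 or higher and 0.0395 in the others. The remaining members were Tmem131l (1.21), Wdr82 (1.18), Amn1 (1.3) and Abcd3, a peroxisomal transporter (1.27). The other clones of Tmem131l and Amn1 had ratios of 1.04 and 0.942, and those of Wdr82 ran from 0.977 to 1.28. On the Wdr82 clone at 1.28 (PP:25i14) mutant tumor 79 held 4.22, and the medians were 0.176 in mutant and 0.187 in wild-type tumors.

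Among the 10 clones with a single gene symbol of smallest p lower in mutant tumors, Lgals9 came first. It encodes galectin-9, a sugar-binding protein that acts on immune cells. Mutant tumors ran from -1.54 through -1.04 to -0.446 (-1.02 ± 0.333, SD, n = 12) and wild-type tumors from -0.721 through -0.482 to -0.28 (-0.511 ± 0.123, SD, n = 9). In 10 of 12 mutant tumors the value was below every wild-type tumor, with tumors 26 (-0.526) and 66 (-0.446) as the exceptions. The ratio was 0.705 (0.596 to 0.834, p = 0.000301, adjusted p = 0.996, limma). The log2 difference was -0.454 in tumors numbered 38 or lower, -0.541 in those numbered 42 or higher, -0.501 with plate positions aligned and -0.557 to -0.457 as each tumor was left out. Lgals9 has 1 clone on the array, so no other clone could be set beside it.

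Lpl, the lipoprotein lipase of fat and lactating mammary cells, had both of its clones lower at an unadjusted p under 0.05. On PP:30d6 it ran from -2.12 through -1.87 to -1.43 in mutant and from -1.97 through -1.55 to -1.07 in wild-type tumors (ratio 0.797, 0.689 to 0.922, p = 0.00391, limma, not adjusted), and on PP:36p7 the ratio was 0.775 (0.619 to 0.971, p = 0.0284). With plate positions aligned the log2 difference was -0.301 on each clone, with p = 0.0188 on PP:30d6 and 0.0766 on PP:36p7 (limma, not adjusted). Fmod, the collagen-binding proteoglycan fibromodulin, had a ratio of 0.616 (0.446 to 0.849) with means of 0.331 ± 0.489 (SD, n = 12) and 1.03 ± 0.574 (SD, n = 9). Dip2a had a ratio of 0.784, Ssbp3 0.768 and 0.917 on its other clone, Llph 0.812, Ehd3 0.737 and Mettl18 0.628. On 2 mutant arrays Mettl18 held the log2 ratio that many clones of the array share. With those values set missing its log2 difference was -0.574 (p = 0.0234, limma, not adjusted), in place of -0.671. Ppp1r12c had a log2 difference of -0.299 on one clone, and of 0.00539 and 0.319 on the others. On the clone at 0.319 (PP:37g9) mutant tumor 80 held 4.12, and the medians were -0.13 in mutant and -0.152 in wild-type tumors. With plate positions aligned, Dip2a, Ehd3 and Ppp1r12c (PP:7p14) had log2 differences of -0.235, -0.334 and -0.193, in place of -0.351, -0.441 and -0.299. Their p-values were then 0.0241, 0.0275 and 0.0242 (limma, not adjusted).

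The lowest ratio of the 10, 0.34, was that of a clone of the calcium-binding protein Chp1. On 8 of 21 arrays, 6 mutant and 2 wild-type, this clone held the log2 ratio that many clones of the array share, and with those values set missing its log2 difference was -2.02 (p = 0.00868, limma, not adjusted). The other clones of Chp1 had ratios of 1.01 and 1.13. The wild-type group ran up to 5.02 in tumor 49. Without tumors 42 and 49 the log2 difference was -1.17 in place of -1.56.

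**Figure D2:**
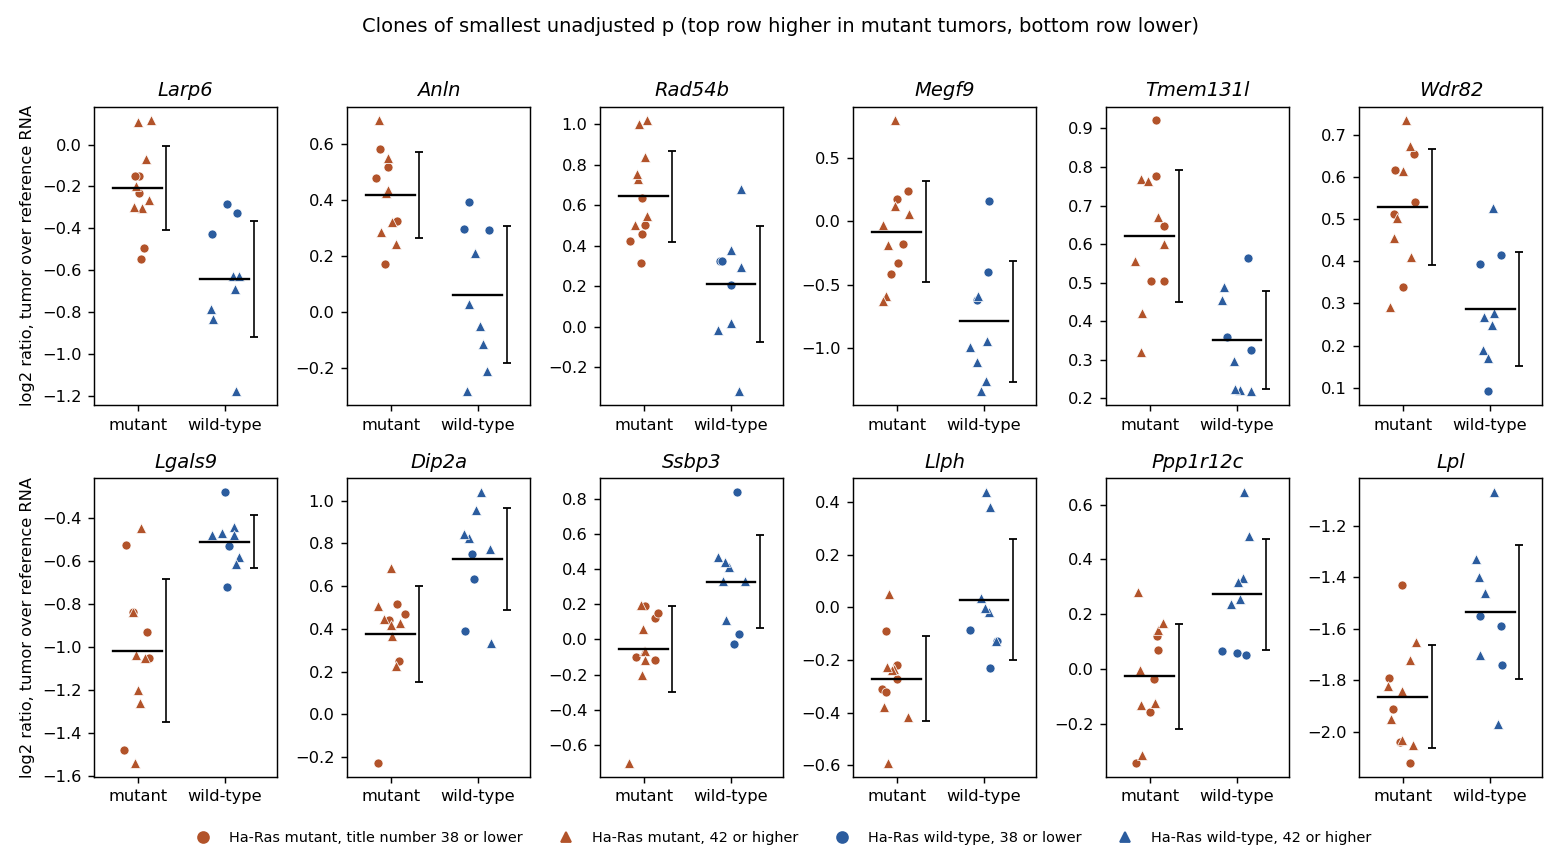
Log2 ratio of tumor over reference RNA in each of the 21 tumors for 6 clones higher in mutant tumors (top) and 6 lower (bottom). They are those of smallest unadjusted p among clones with a single gene symbol. Points are tumors, colored by Ha-Ras status and shaped by title number, horizontal lines are group means, and bars are 1 SD. Groups overlap in every panel, and for Larp6 and Anln the lowest wild-type values are those of tumors numbered 42 or higher.

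The group of genes with the largest median difference among tumor tissue lists was that of keratinizing epithelium, the proteins of stratified, cornifying surfaces. Of 15 measured, 13 had a higher and 2 a lower mean in mutant tumors, 3 were at an unadjusted p under 0.05 (all higher), and the median ratio was 1.21 beside 1.01 over all genes. Over all 7766 genes, 4147 had a higher and 3619 a lower mean, and 243 (3.13%) were higher at an unadjusted p under 0.05. None of the 15 had an adjusted p under 0.05. From these same tumors the study named Sprr genes and Krtdap as higher in mutant tumors and Krt6a as lower. The list holds all of them, so their direction is not independent evidence. Krt6a had the opposite direction here, a higher mean in mutant tumors (ratio 1.26, 0.644 to 2.47). The median log2 difference was 0.28, and 0.322 with arrays scaled to one SD, 0.242 without tumors 42 and 49, 0.292 with title number as a block and 0.301 with plate positions aligned.

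Krtdap, a secreted protein of differentiating keratinocytes, had the largest ratio, 2.85 (1.39 to 5.82, p = 0.00614, adjusted p = 0.996, limma). It ran from -2.79 through -0.915 to 1.2 in mutant and from -3.4 through -2.45 to -0.819 in wild-type tumors, and 6 of 12 mutant tumors lay above every wild-type tumor. Those 6 were tumors 21, 22, 23, 26, 42 and 79, and the other 6 mutant tumors lay within the wild-type range. The log2 difference was 1.22 in tumors numbered 38 or lower and 1.48 in those numbered 42 or higher. Virgin glands had a median of -1.02, hyperplastic glands -1.31 and Neu-induced tumors -1.68 (n = 12), and those 6 mutant tumors lay above the highest value of each (-0.9, -0.521 and -0.789). Lung metastases of Wnt-1 tumors reached 0.544 (n = 10).

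Csta1, a cysteine protease inhibitor of the stefin A family, had a ratio of 1.94 (1.28 to 2.93, p = 0.00309, adjusted p = 0.996, limma). Mutant tumors ran from -0.476 through 0.223 to 2.07 and wild-type tumors from -1.17 through -0.426 to 0.0178. The 6 mutant tumors above every wild-type tumor were 23, 26, 42, 65, 79 and 80. Stefin A genes lie in a cluster of near-identical copies, so the cDNA clone may also have hybridized with its relatives.

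The small proline-rich proteins are cross-linked into the cornified envelope. Sprr1a ran from 1.13 through 2.57 to 4.38 in mutant and from -0.57 through 1.13 to 3.85 in wild-type tumors (ratio 2.21, 1.01 to 4.83, p = 0.0462, adjusted p = 0.989, limma). Wild-type tumors 38 (3.85) and 47 (3.23) were above the mutant median, while tumors 25, 69, 70 and 71 were below every mutant tumor. Sprr2a3, named here after its values were seen, ran from -0.944 through 0.344 to 4.82 and from -2.7 through -0.647 to 2.31 (ratio 2.56, 0.961 to 6.81, p = 0.0592). It too belongs to a family of near-identical copies.

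Other members of the list had smaller ratios with intervals that span 1: the calcium-binding protein S100a8 1.55 (0.83 to 2.89), keratin 13 (Krt13) 1.37 (0.878 to 2.15), keratin 6a (Krt6a) 1.26 (0.644 to 2.47) and keratin 10 (Krt10) 0.997 (0.873 to 1.14). Averaged over the 15 genes, a tumor's log2 ratio ran from -0.183 through 0.0921 to 1.01 in the mutant group and from -0.658 through -0.228 to 0.356 in the wild-type group. Mutant tumors 23 (0.812), 26 (0.79), 42 (1.01) and 79 (0.694) stood above every wild-type tumor, and the other 8 overlapped with the wild-type range.

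**Figure D3:**
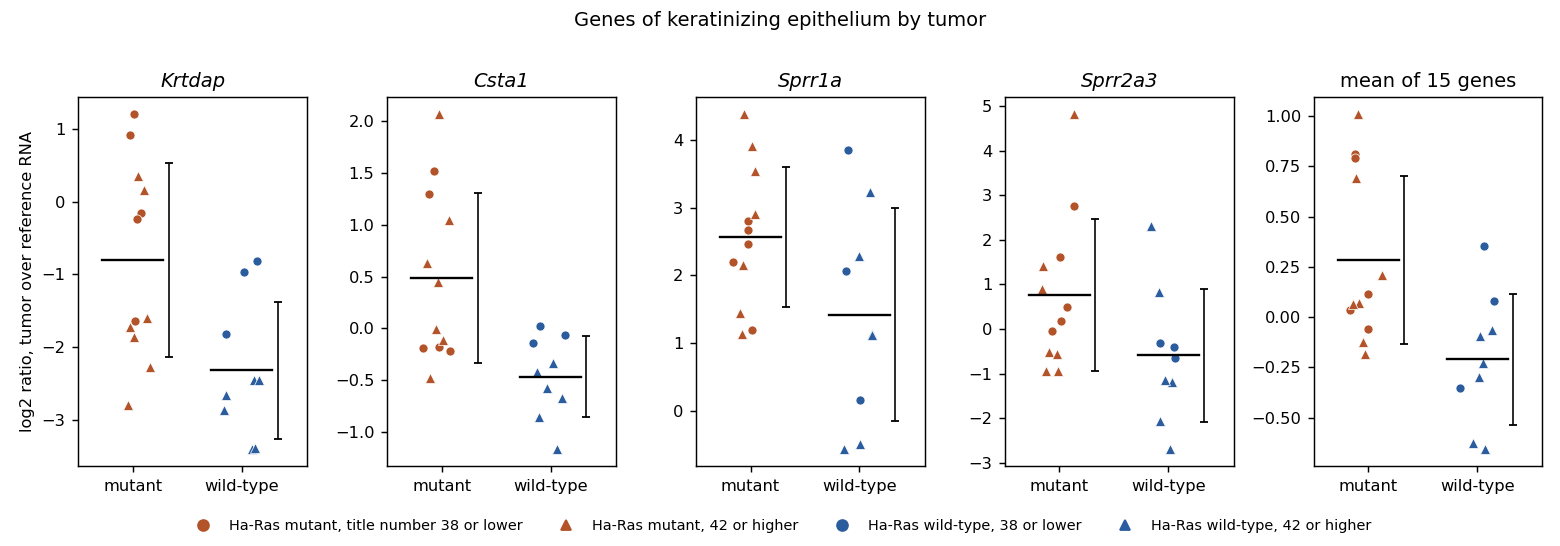
Log2 ratio of tumor over reference RNA in each of the 21 tumors for Krtdap, Csta1, Sprr1a and Sprr2a3, and for the mean of 15 genes of keratinizing epithelium. Points are tumors, lines are group means and bars are 1 SD. In the last panel 4 mutant tumors, at 0.694 to 1.01, lie above every wild-type tumor, and the other 8 overlap with them.

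No marker of a cell type was called between the groups. Luminal genes lay on both sides of the reference level. E-cadherin (Cdh1) had mean log2 ratios of 1.7 in mutant and 1.72 in wild-type tumors, and keratin 19 (Krt19) 2.57 and 2.66. Muc1 (-0.975 and -0.756), Tspan8 (-0.769 and -1.07), Cd24a (-0.682 and -0.523) and Cldn4 (-0.546 and -0.485) were below it. The reference pool holds lactating gland and other organs, so the sign of a ratio does not give cell identity. Over 13 luminal genes the median ratio was 0.942, with 10 lower and 3 higher, and over 10 myoepithelial and basal genes it was 0.94. The estrogen receptor Esr1 was the luminal gene at an unadjusted p under 0.05 after its clones were averaged (ratio 0.741, p = 0.0412, adjusted p = 0.989, limma), and wild-type tumor 38 held a value of 3.01 on one of its clones where the next highest was 0.241. The smooth muscle proteins Cnn1 and Myh11 had ratios of 0.712 (0.494 to 1.03) and 0.745 (0.548 to 1.01). Cnn1 held the log2 ratio shared by many clones on 1 mutant array. With that value set missing its log2 difference was -0.372 in place of -0.49.

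Genes of fat, stroma, vessels and blood cells gave no call either. Over 25 adipocyte genes 2, Lpl and the lipase Pnpla2, had an unadjusted p under 0.05, both lower, with a median log2 difference of -0.0687 over the list that turned to 0.0121 without tumor 42. Adiponectin (Adipoq) and Fabp4, which are more particular to fat cells than Lpl, had ratios of 0.897 (0.64 to 1.26) and 1.11 (0.637 to 1.93). Fibroblast and matrix genes (18 measured) had a median ratio of 0.933, lymphocyte genes (17) 1.07, myeloid genes (16) 0.996 and endothelial genes (20) 0.992. In these 4 lists together Sox18, an endothelial transcription factor, was the member at an unadjusted p under 0.05 (ratio 0.893, p = 0.0475). Of 18 milk and alveolar genes none was, and the lowest ratio was that of kappa-casein (Csn3), 0.424 (0.176 to 1.02), with SDs of 1.69 and 1.03 within the groups. The study named kappa-casein as lower from these same tumors, so its direction is not independent evidence. Skeletal muscle genes (11 measured) and ribosomal protein genes (6) had median log2 differences of 0.00578 and 0.0307, with 0 at an unadjusted p under 0.05 in both. The part of these cell types in the other results was not tested.

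Signaling lists outside the Ras pathway gave no called gene. Wnt and beta-catenin targets (15 measured) had a median log2 difference of -0.11, which became 0.00738 with arrays scaled to one SD, and 0 were at an unadjusted p under 0.05. Among 9 Wnt ligands and receptors 3 were: the Frizzled receptors Fzd8 (ratio 0.845) and Fzd6 (0.871) lower and Fzd5 (1.89), named after its values were seen, higher. Over all 7766 genes 331 (4.26%) were. In tumors numbered 38 or lower Fzd6 had a log2 difference of 0.0465. Only 1 of the 2 clones of Fzd5 had an unadjusted p under 0.05. The 12 p53 targets had ratios from 0.946 to 1.17 and all their intervals lay inside 1.5-fold. All 9 glycolysis and hypoxia genes had a lower mean in mutant tumors, at ratios of 0.77 for Vegfa to 0.966 for Ndrg1, with 0 at an unadjusted p under 0.05 and a median log2 difference of -0.143, or -0.109 with arrays scaled. Over all genes 3619 of 7766 had a lower mean.

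In the interferon response list 3 of 24 genes were lower at an unadjusted p under 0.05: Oas2 (ratio 0.566), Ifitm3 (0.857) and Stat2 (0.9). Over all genes 88 of 7766 (1.13%) were lower at that threshold. The Oas2 clone of smallest p, PP:14m16, held the value shared by many clones on 12 of 21 arrays (9 mutant and 3 wild-type). The other Oas2 clone, PP:14o16, had a ratio of 0.806 (0.362 to 1.79), with mutant tumor 42 at -5.63. Without tumor 42 the log2 difference of PP:14o16 was 0.161 in place of -0.31. With plate positions aligned Stat2 had a log2 difference of -0.0463 in place of -0.153. The median over the list was -0.0891.

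Genes of the organs in the reference RNA give the low end of the arrays. Over 14 liver genes the mean log2 ratio was -4.11, 13 of 14 had a higher mean in mutant tumors and the median log2 difference was 0.461, but 0 were at an unadjusted p under 0.05. Over all genes 4147 of 7766 had a higher mean. The study named Slc2a2, a member of the liver list, as higher from these same tumors, so its direction is not independent evidence. The median log2 difference of the liver genes was 0.215 with arrays scaled to one SD. A tumor's average over the liver genes lay between -3.81 and -2.88 in the tumors numbered 38 or lower and between -5.95 and -3.8 in the others, and both groups spanned most of that range (-5.43 to -2.88 in mutant and -5.95 to -2.92 in wild-type tumors). Kidney (4 measured), lung (7) and pancreas (1) genes had median log2 differences of 0.319, 0.13 and 0.176, with 0 at an unadjusted p under 0.05. The part of the array SD in these differences was not tested.

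Clones were also compared by where their identifiers place them. Each identifier gives a plate (40 in all), a row and a column. Taking rows modulo 8 and columns modulo 4 gives 32 position groups of 480 clones. This grouping was chosen after the values were seen, and the layout in which clones were printed is not given in the sources used here. The median mutant minus wild-type difference of a group ran from -0.105 to 0.122, and the number of its clones higher at an unadjusted p under 0.05 from 0 to 77. The 4 groups with the most held 206 of the 445 higher clones (46.3%) among 12.5% of all clones. The 217 lower clones were uneven too: a group held 27 of them and another 26, while others held 0. On single arrays the median of a group differed from the array's own by -0.53 to 0.429.

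Once the medians of the 32 groups were aligned on each array, the count of clones at an unadjusted p under 0.05 was 481, of which 292 were higher and 189 lower, and 0 were called by limma. At most 26 clones of a group were then higher. The permutation test at P under 0.001 gave 8 clones, 2 higher and 6 lower, in place of 14. Of the 14, only Lgals9 (-0.501), Larp6 (0.385), Anln (0.294) and PP:11l19 (-0.382), a clone without a single symbol, stayed at a permutation P under 0.001. The 8 thus include clones that were not among the 14. Tmem131l and Tomm70a had log2 differences of 0.27 and 0.21 that became 0.148 and 0.0882. Megf9, Abcd3, Rad54b, Wdr82 and Amn1 then had a permutation P of 0.00176 to 0.0114. Csta1 (0.956) and Krtdap (1.58), not among the 14, moved little.

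**Figure D4:**
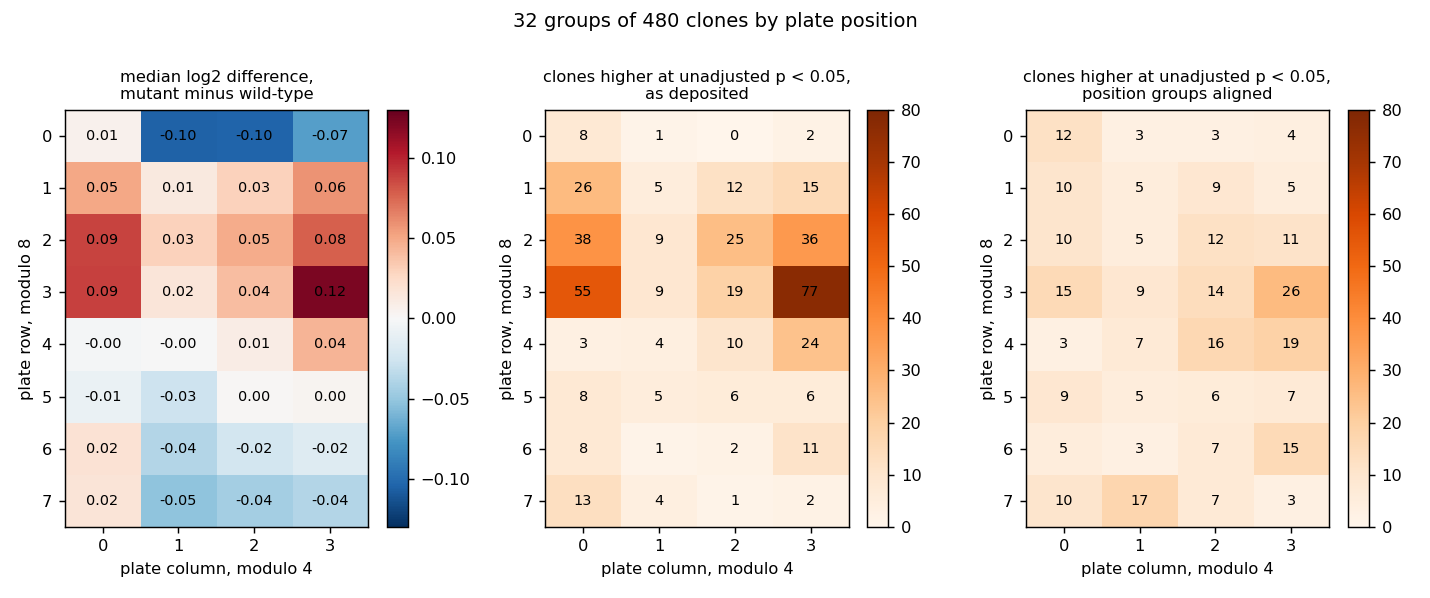
Plate row (modulo 8) against plate column (modulo 4) for 32 groups of 480 clones, showing the median log2 difference of mutant minus wild-type tumors (left), and the number of clones higher in mutant tumors at an unadjusted p under 0.05 as deposited (middle) and after alignment (right). As deposited the number per group runs from 0 to 77, and after alignment from 3 to 26.

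The arrays as wholes were compared by their distances, taken as 1 minus the Pearson correlation over 15359 clones. The mean distance between tumors of unlike status was 0.248 and between tumors of like status 0.243, a difference of 0.00571 (exact two-sided permutation p = 0.532 over 293930 splits of the tumors, of which the smallest possible p is 3.4e-06). It was 0.234 among mutant and 0.259 among wild-type tumors. Without tumor 42 the difference was 0.014 (exact two-sided permutation p = 0.0351), and without tumors 42 and 49 it was 0.00949 (p = 0.171, the same exact test). Within the tumors numbered 38 or lower it was 0.00991 (exact p = 0.339, smallest possible 0.0179) and within those numbered 42 or higher 0.0206 (exact p = 0.0548).

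The median correlation of 2 arrays was 0.79 over 66 mutant pairs, 0.748 over 36 wild-type pairs and 0.759 over 108 mixed pairs. The nearest tumor had the same Ha-Ras status for 13 of 21 tumors, 10 of 12 mutant and 3 of 9 wild-type, and lay in the same range of title numbers for 18 of 21. Group sizes alone would give 10.2 tumors whose nearest tumor has the same status. Pairs numbered 38 or lower had a median correlation of 0.875 and pairs numbered 42 or higher one of 0.721. The nearest tumor shared the title number range more often than the Ha-Ras status, a difference that was not tested.

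**Figure D5:**
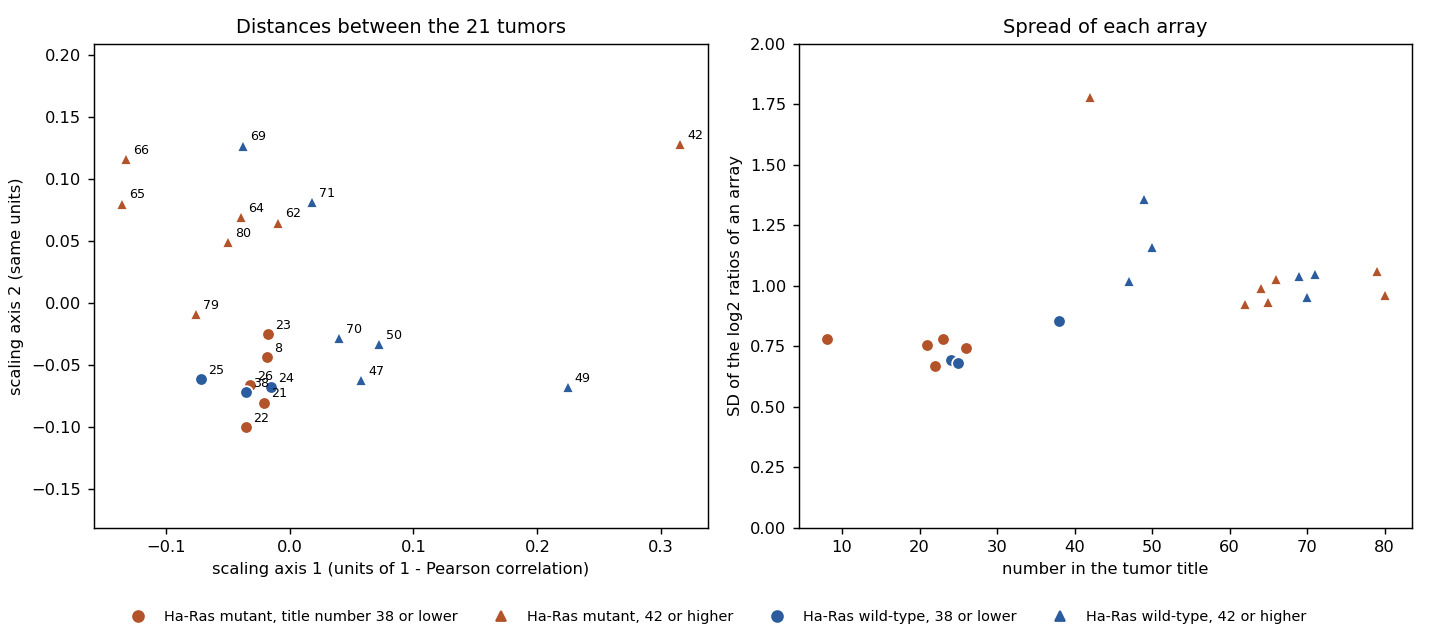
Left, classical scaling of the distances (1 minus Pearson correlation) between the 21 tumors, labeled by title number. Right, the SD of each array's log2 ratios against the number in its title. Colors give Ha-Ras status and shapes the title number range. Mutant and wild-type tumors mix at the lower left, and tumor 42, with an SD of 1.78, and tumor 49, with 1.36, lie farthest to the right of the scaling plot.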

How the data were processed

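The authors scanned the 2-color arrays on a GenePix scanner, measured spots and their quality in ArraySuite, normalized each array by a method not given in the sources used here, and deposited log2 ratios of Cy5 (tumor) over Cy3 (reference). Their quality filter was not repeated, so every clone was tested. Arrays have no read depth, so precision is limited by how many there are. Of 15360 clones, 11860 carried a single gene symbol (7766 genes), 705 several and 2795 none.

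Mutant and wild-type tumors were compared in R 4.3.3 with limma 3.58.1 (lmFit, eBayes) on the deposited values, keeping clones measured on 50% or more of each group's arrays, with Benjamini-Hochberg adjustment over all clones and a call at 0.05. The permutation test pooled statistics over clones from 100 regroupings. Single values were tested by exact permutation (NumPy 2.4.6). The fit was tested on simulated data. Whether tumors were separate animals is not stated, so p-values measure the spread between these samples.

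Members, the 26 gene lists and the tests were chosen with earlier results of these data known. Named clones were the 10 of smallest unadjusted p in each direction among those with a single symbol, every clone of Hras or Nras, and the 2 members of smallest p in each list, with every other clone of a named gene; other genes of the lists illustrate counts or were named after their values were seen. Alternatives were array centring, scaling to one SD, quantile normalization, clones without missing values, ratios under 0.01 or over 100 set missing, trend and robust eBayes, array weights, all groups in one fit, clones averaged per gene, a 1.5-fold minimum and leaving out each tumor. Added after the values were seen were title number as a block or range, leaving out tumors 42 and 49, alignment of plate positions, and setting each array's repeated value missing. One item is not reported here.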

Additional observations from a re-analysis of the deposited data

Results flagged for a closer look

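Within the 9 wild-type tumors, 7 of 73 clones and array measures held a tumor far from the rest, its gap to the nearest other tumor exceeding Dixon's 95% critical share of the group's range. Chance alone marks about 1 in 20 such groups. Esr1 was at 3.01 in tumor 38, where the next tumor was at 0.241. Ralgds was at 0.677 in tumor 38 (next 1.51) and Rgl1 at -1.9 in tumor 49 (next -1.12). Cenpa was at -1.24 in tumor 47 (next -0.112), and Rap1a at -0.75 in the same tumor (next -0.406). Mettl18 was at 1.86 in tumor 71 (next 0.946) and the p53 target Trp53inp1 at -0.79 in tumor 70 (next -1.27).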

How the results depend on the processing

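No clone was called under any alternative, with smallest adjusted p-values from 0.24, in the tumors numbered 42 or higher alone, to 1, without tumor 47 or 50. The count at an unadjusted p under 0.05, 662 in all tumors, was 1269 in the tumors numbered 42 or higher (8.26%), 567 in those numbered 38 or lower (3.69%), 331 genes of 7766 with clones averaged per gene, and between 499 and 953 as each tumor was left out, with 911 without tumor 42. Higher clones made up 445 of 662 of these, 380 of 673 after quantile normalization and 282 of 567 in the tumors numbered 38 or lower. At P under 0.001 the count of 14 was 8 with plate positions aligned and 8 by limma's unadjusted p, and was 10 to 14 otherwise. The distance between minus within groups was 0.014 (p = 0.0351, exact) without tumor 42. Of the clones named by rule, Ppp1r12c (PP:7p14), at 0.00839, and Csn1s2a (PP:40n23), at 0.138, turned positive with clones averaged per gene. Rpl8 (PP:19i4) turned to -0.0312 with plate positions aligned and to -0.0249 with title number as a block besides. Clps (PP:10p10) turned to -0.0315 with arrays scaled and to -0.451 after quantile normalization. In the tumors numbered 42 or higher alone, Myc (PP:7d19) turned to 0.00361 and Clps to -0.0609. In those numbered 38 or lower alone, 17 of 71 clones turned: Nras (PP:2m4) to -0.115, Nras (PP:3i17) to -0.0226, Cd44 (PP:21m9) to -0.0183, Pdgfra (PP:10c24) to -0.125, Sos2 (PP:16k12) to -0.0214, Rasgrp1 (PP:11b20) to -0.356, Mras (PP:15b11) to -0.0718, Mybph (PP:3b4) to -0.13, Sfrp1 (PP:19j16) to -0.48, Sesn1 (PP:5d23) to -0.0619, Slc2a2 (PP:22a19) to -0.0365, Slc6a18 (PP:13c15) to -0.0742, Csn1s2a to 0.0803, Col14a1 (PP:35h12) to 0.0925, Nkd1 (PP:33f21) to 0.0309, Fzd6 (PP:35p19) to 0.0465 and Pdk1 (PP:26p1) to 0.0551. The other 2669 values of named clones under alternatives kept their direction and stayed uncalled. The cause of these shifts was not tested. No paired analysis was possible because mutant and wild-type tumors share no number in their titles.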

Other observations

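Tumors 20 and 36, whose Ha-Ras status is unknown, entered no test. Their log2 ratios were -1.05 and -1.5 for Krtdap, -0.479 and -0.243 for Csta1, 1.24 and 1.78 for Sprr1a, and 2.29 and 2.53 for Myc. For Lgals9 they were -0.88 and -1.4, both below every wild-type tumor and inside the range of the mutant tumors. Lgals9 had a median of -0.465 in virgin glands (n = 5), -1.44 in hyperplastic glands of MMTV-Wnt-1 mice (n = 7), -0.599 in Neu-induced tumors (n = 12) and -0.367 in metastases of Wnt-1 tumors (n = 10), and every hyperplastic gland (-1.84 to -1.18) was below every wild-type tumor.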
